A study of Mus musculus with 201 samples.

Results

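The reciprocal F1 hybrids of the mouse strains DBA/2J and C57BL/6J were examined for where their hippocampal transcript levels lie between those of their inbred parents. Hybrids of this cross carry 1 DBA/2J and 1 C57BL/6J copy of every autosomal gene. They were chosen by their strain labels and made up 6 of the 201 arrays in the series. The series measured adult mouse hippocampus on Affymetrix short-oligonucleotide arrays, with most of the other arrays from the BXD strains, recombinant inbred lines bred from the same pair of parents.

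The D2B6F1 hybrids, by the usual naming from a DBA/2J mother and a C57BL/6J father, were on 3 arrays. All of these were female, aged 65, 63 and 72 days, from pools of 2, 3 and 3 mice. The B6D2F1 hybrids, from a C57BL/6J mother and a DBA/2J father, were on 3 arrays, 1 female aged 64 days and 2 male aged 66 days, each from a pool of 3. The B6D2F1 arrays of replicates 2 and 3 are labelled as technical duplicates of the same RNA. They were averaged in every group mean and test, and the hybrids counted as 5 columns. Where single arrays or single batches are described, the duplicates are kept apart. DBA/2J was on 2 female arrays (63 and 64 days, pools of 2 and 3). C57BL/6J was on 3 arrays, 1 female (69 days, pool of 4) and 2 male (65 and 71 days, pools of 4 and 3). The source label was JAX for DBA/2J replicate 1, UTM DG for C57BL/6J replicate 3 and UTM RW for every hybrid array. DBA/2J replicate 1 was in batch 7, which held no hybrid array. The part of source in the results was not tested. No animal carried a transgene or received a treatment by the labels. Pools are separate samples by the labels. The p-values measure the spread between pools of a strain, shared over all strains in the fit (199 columns, 133 of them BXD arrays). They do not rest on the hybrid and parental pools alone.

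Levels are the authors' PDNN values, a log-like score set to a mean near 8 on every array. Its logarithmic base is not stated in the labels, so values are compared as PDNN units and never as folds. The present-call share of the 11 arrays was 47% to 52.7%. Their RMA outlier share was 0.01 to 0.09 and their Actb ratio 1.09 to 2.49. Hippocampal markers were present: the dentate granule list (6 of 6 genes measured) averaged 8.62 to 8.82 units in the hybrids, against 8.43 to 8.85 in the parents, and the pyramidal neuron list (6 of 7) averaged 9.32 to 9.5 units in the hybrids, against 9.27 to 9.55 in the parents. The thalamus list lay at 8.37 to 8.5 units in the hybrids, against 8.37 to 8.53 in the parents. The choroid plexus list varied more, with 8.04 to 8.73 units in the hybrids and 7.8 to 9 in the parents. Its transthyretin gene Ttr ran between 10.4 and 11.8 units in the hybrids, against 8.29 to 12 in the parents. The part of these differences in the results was not tested.

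In general, a regulatory difference that acts only on its own copy of a gene leaves an F1 hybrid between its parents, and dominance brings it near one of them. Parent-of-origin effects, as in imprinted genes, make the reciprocal hybrids differ although their autosomal alleles are the same. An array level cannot tell transcript amount from how well a probe binds either parent's allele.

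For each probe set with parental means at least 0.5 units apart, the F1 position was computed as the F1 mean minus the C57BL/6J mean, divided by the DBA/2J mean minus the C57BL/6J mean. A position of 0 is the C57BL/6J level, 1 the DBA/2J level and 0.5 midway. Of 45037 probe sets, 781 (1.73%) met the rule, and 631 of them were higher in DBA/2J and 150 lower. The values just inside the rule included Pnmal2 at 0.501 units and a probe set with no symbol at -0.5, and just outside lay Csnk1a1 at 0.4995 and Tpbg at 0.4997. A single gene symbol was listed for 558 of the 781, several for 23 and none for 200. The parental values chose these probe sets, so the parental difference is a description here and has no test.

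The BXD strains gave a measure that the rule did not use. A strain effect across 68 BXD strains (133 arrays; limma's F-test with Benjamini-Hochberg adjustment, adjusted p under 0.05) was called for 3773 of 45037 probe sets (8.38%). It was called for 265 of the 781 chosen probe sets (33.9%). Those higher in C57BL/6J had it in 124 of 150 cases (82.7%), and those higher in DBA/2J in 141 of 631 (22.3%). Probe sets with and without this strain effect are described separately. The F-test sets strain differences against the spread between arrays of a strain, so it favours probe sets with little spread. The median residual SD of the fit was 0.126 units with the effect and 0.198 without. Closer arrays with the effect are therefore partly fixed by this choice.

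Single arrays were placed between the parents to show how reproducible a position is. Among the 516 probe sets with no BXD strain effect called, the median position was 0.68, 0.69 and 0.83 on D2B6F1 replicates 1, 2 and 3. It was 0.10, 0.18 and 1.01 on B6D2F1 replicates 1, 2 and 3. The technical duplicates, B6D2F1 replicates 2 and 3, thus stood at opposite ends although they carried the same RNA. Replicate 2 was in batch 1, with an RMA outlier share of 0.01 and an Actb ratio of 1.21. Replicate 3 was in batch 6, with 0.08 and 1.9. The part of batch and array quality in the positions was not tested. The levels of the duplicates differed by a median of 0.562 units over these probe sets, against 0.095 units over all probe sets. Of the 324 chosen probe sets on which the duplicates differed by 0.5 units or more, 291 had no BXD strain effect called.

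**Figure D1:**
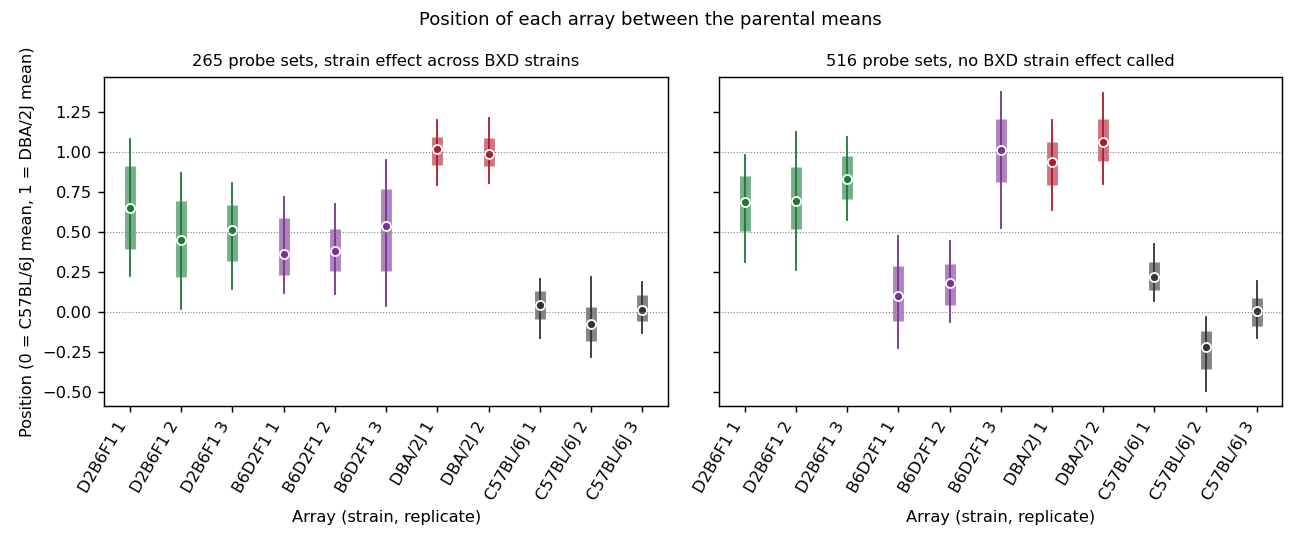
Position of every array between the parental means (vertical axis, no unit; 0 is the C57BL/6J mean and 1 the DBA/2J mean), for 265 probe sets with a strain effect across the BXD strains (left) and 516 without one (right). Circles are medians over probe sets, thick bars the middle 50% and thin lines the 10th to 90th percentiles. On the right, B6D2F1 replicates 2 and 3, 2 arrays of the same RNA, lie at 0.18 and 1.01.

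Among the 265 probe sets with a BXD strain effect, the arrays lay closer together. The median position was 0.65, 0.45 and 0.51 on D2B6F1 replicates 1, 2 and 3, and 0.36, 0.38 and 0.54 on B6D2F1 replicates 1, 2 and 3. The duplicates differed by a median of 0.184 units on these. Where the parental difference was also 1 unit or more (45 probe sets), their positions differed by a median of 0.166, against 0.774 for the 45 such probe sets without a BXD strain effect.

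Positions were also taken within a batch. Against the C57BL/6J array of the same batch, the F1 difference as a share of the parental one had a median in batch 6 of 0.62 for D2B6F1 replicate 3 over the 516 probe sets, and of -0.13 and 0.78 for B6D2F1 replicates 1 and 3. With a BXD strain effect the same batch 6 shares were 0.45 for D2B6F1 replicate 3 and 0.32 and 0.48 for B6D2F1 replicates 1 and 3. In batch 1 they were 0.71 for D2B6F1 replicate 1 and 0.46 for B6D2F1 replicate 2, and in batch 5 the share was 0.46 for D2B6F1 replicate 2. The spread between arrays within batch 6 was thus wider for the probe sets without a BXD strain effect.

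The chosen probe sets without a BXD strain effect included several nuclear and RNA-processing transcripts. Malat1, a long non-coding RNA retained in the nucleus, had a position of 0.78 at a probe set that read 10.80, 10.76 and 10.96 units in D2B6F1, 9.28, 9.75 and 10.86 in B6D2F1, 10.10 and 10.99 in DBA/2J, and 9.90, 9.33 and 9.30 in C57BL/6J. The duplicate pair alone, 9.75 and 10.86, spanned most of this range. Further Malat1 probe sets in the rule had positions of 0.67, 0.82 and 1.26, the last beyond the DBA/2J mean. Sfpq, a splicing factor, had 9.19, 8.96 and 9.19 units in D2B6F1, 7.85, 8.08 and 9.43 in B6D2F1, 9.23 and 9.56 in DBA/2J, and 8.10, 7.71 and 7.82 in C57BL/6J. Again B6D2F1 replicate 3 was at the DBA/2J level and its duplicate near the C57BL/6J level. Gas7, a growth-arrest protein linked to neurite outgrowth, had the largest parental difference among the named genes, 2.13 units, with a position of 0.53. Its hybrids ran from 8.34 to 10.2 units and overlapped the range of C57BL/6J, whose replicate 1 was at 8.98. Slc1a2 (the glial glutamate transporter GLT-1), Cpsf6 (a pre-mRNA cleavage factor), Klf7 (a transcription factor), Sesn3 (a stress-response sestrin) and Lpgat1 (an acyltransferase) had positions of 0.67, 0.48, 0.52, 0.48 and 0.49. For Klf7 the duplicates read 8.17 and 8.98 units, beside a DBA/2J mean of 9 and a C57BL/6J mean of 7.95. A mean position near 0.5 in these genes came from arrays far apart.

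The 265 probe sets with a BXD strain effect, which the F-test favours for little spread, had the more reproducible positions. Their median position was 0.50 (middle 50%, 0.35 to 0.60), and 0.45 (0.31 to 0.60) without D2B6F1 replicate 1. The median was 0.57 for the 141 that were higher in DBA/2J and 0.38 for the 124 that were lower, so the hybrids lay nearer the parent with the higher level in both directions. In total 195 of 265 (73.6%) lay nearer the higher parent, and 192 (72.5%) without D2B6F1 replicate 1. Counted toward the higher parent, the median was 0.59, and it was above 0.5 on 6 of 6 arrays, at 0.64, 0.66 and 0.61 in D2B6F1 and 0.59, 0.57 and 0.69 in B6D2F1. Among these, B6D2F1 replicates 2 and 3 are the technical duplicates. By direction it was not so on every array. D2B6F1 replicates lay at 0.71, 0.63 and 0.61 for genes higher in DBA/2J, but B6D2F1 replicates 1 and 2 lay at 0.44 and 0.46 and replicate 3 at 0.68.

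A midway score is not midway in RNA amount on a log-like scale. Were the scores log2 values, an equal mix of both parents' RNA would lie at a median of 0.56 toward the higher parent over these probe sets, against the 0.59 measured, and 148 of 265 (55.8%) lay above their own equal-mix value. By direction, 73 of 141 probe sets higher in DBA/2J (51.8%) lay above it, and 75 of 124 (60.5%) of those higher in C57BL/6J. Without D2B6F1 replicate 1, 64 of 141 probe sets higher in DBA/2J (45.4%) lay above it, and 89 of 124 (71.8%) of those higher in C57BL/6J. The base of the scale was not tested.

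**Figure D2:**
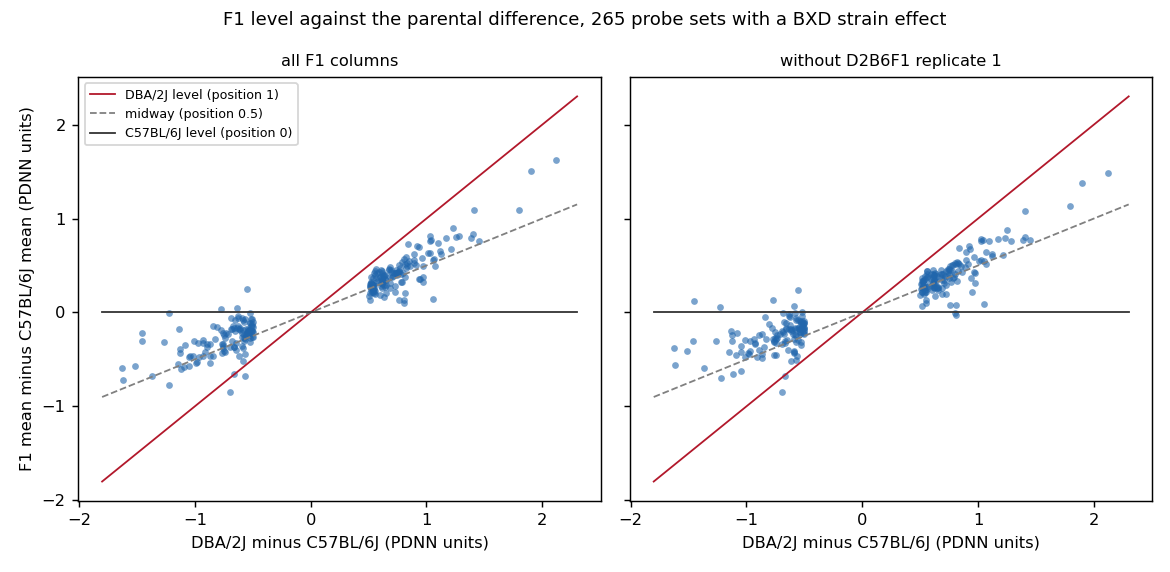
F1 mean minus C57BL/6J mean (vertical axis, PDNN units) against DBA/2J minus C57BL/6J (horizontal axis, PDNN units) for 265 probe sets with a BXD strain effect, with all F1 columns (left) and without D2B6F1 replicate 1 (right). The lines mark the DBA/2J level, the midway level and the C57BL/6J level. Most points lie between the parental lines, with 195 of 265 nearer the higher parent.

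Positions outside the parental means were few. Of these 265 probe sets, 3 lay below 0 and 2 above 1, 31 lay from 0 to 0.25, 216 from 0.25 to 0.75, and 13 from 0.75 to 1. Without D2B6F1 replicate 1 the counts were 8 below 0, 2 above 1, 38 from 0 to 0.25, 208 from 0.25 to 0.75, and 9 from 0.75 to 1. All 5 F1 columns lay between the parental arrays without overlap in 96 (36.2%), against 50 of 516 (9.69%) without a BXD strain effect and 413 of 45037 probe sets (0.917%) in all. Without D2B6F1 replicate 1 the 4 remaining columns did so in 145 of 265 (54.7%), against 1.33% of all probe sets. The rule required a parental gap, so these shares are a description. The probe sets beyond 1 were one for Ptgds (prostaglandin D synthase) at 1.23 and one with no symbol at 1.19, and Ptgds spread widely between the hybrids, from 9.33 to 10.3 units. Below 0 lay Fam126b, Fam168a and Sox11, named here after their values were seen. A further Sox11 probe set was higher in DBA/2J by 0.724 units, with hybrid arrays at positions of 0.16 to 0.92. A further Ptgds probe set had hybrid arrays at positions of 0.15 to 1.42.

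The hybrids were tested against each parent and against the mid-parent across all probe sets with limma, with strain, sex and batch as terms. They differed from C57BL/6J at 196 of the 781 probe sets, against 0.859% of all, with 150 higher (0.577% of all) and 46 lower (0.282%). They differed from DBA/2J at 122, against 0.586% of all, with 79 higher (0.38%) and 43 lower (0.206%). DBA/2J differed from C57BL/6J at 710, against 7.24% of all, with 577 higher (4.6%) and 133 lower (2.64%). These contrasts contain the parental means that chose the probe sets, and nothing is read from the counts. With a BXD strain effect, 46 of 265 differed from both parents, 88 from C57BL/6J only by this threshold, 57 from DBA/2J only and 74 from neither. The same limit holds for this split, whose share over all probe sets was not taken. It does not sort the genes by dominance. Against the mid-parent, limma called 0 of 45037 probe sets (0% of all), with 1348 (2.99%) at an unadjusted p under 0.05. That share was 28.3% (75 of 265) with a BXD strain effect and 1.16% (6 of 516) without. The spread between arrays enters both this p and the BXD call, so nothing is read from the contrast.

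Leaving out D2B6F1 replicate 1 gave 3 calls against the mid-parent (0.00666% of all), all with the hybrids below it. Stab2, a scavenger receptor that takes up hyaluronan (chromosome 10), had 8.11, 7.50 and 7.46 units in D2B6F1, 7.43, 7.59 and 7.45 in B6D2F1, 8.16 and 8.41 in DBA/2J, and 7.46, 7.43 and 7.56 in C57BL/6J. All hybrid arrays except D2B6F1 replicate 1 lay at the C57BL/6J level, and that array lay just below DBA/2J. The difference from the mid-parent was -0.30 units (limma, adjusted p = 0.15) with all arrays and -0.41 units (adjusted p = 1.4e-05) without it, and the position was 0.12 and -0.01.

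A probe set listed for Sfi1, a centrin-binding protein, and for LOC100861749 had 8.37, 8.03 and 7.94 units in D2B6F1, 7.98, 8.02 and 7.96 in B6D2F1, 8.95 and 8.96 in DBA/2J, and 7.83, 7.93 and 7.95 in C57BL/6J. The difference from the mid-parent was -0.33 units (limma, adjusted p = 0.10) with all arrays and -0.40 units (adjusted p = 0.00077) without D2B6F1 replicate 1. The third call, a probe set with no symbol and outside the 0.5-unit rule, differed by -0.23 units (limma, adjusted p = 0.028) without that array and by -0.18 units (adjusted p = 0.98) with it.

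**Figure D3:**
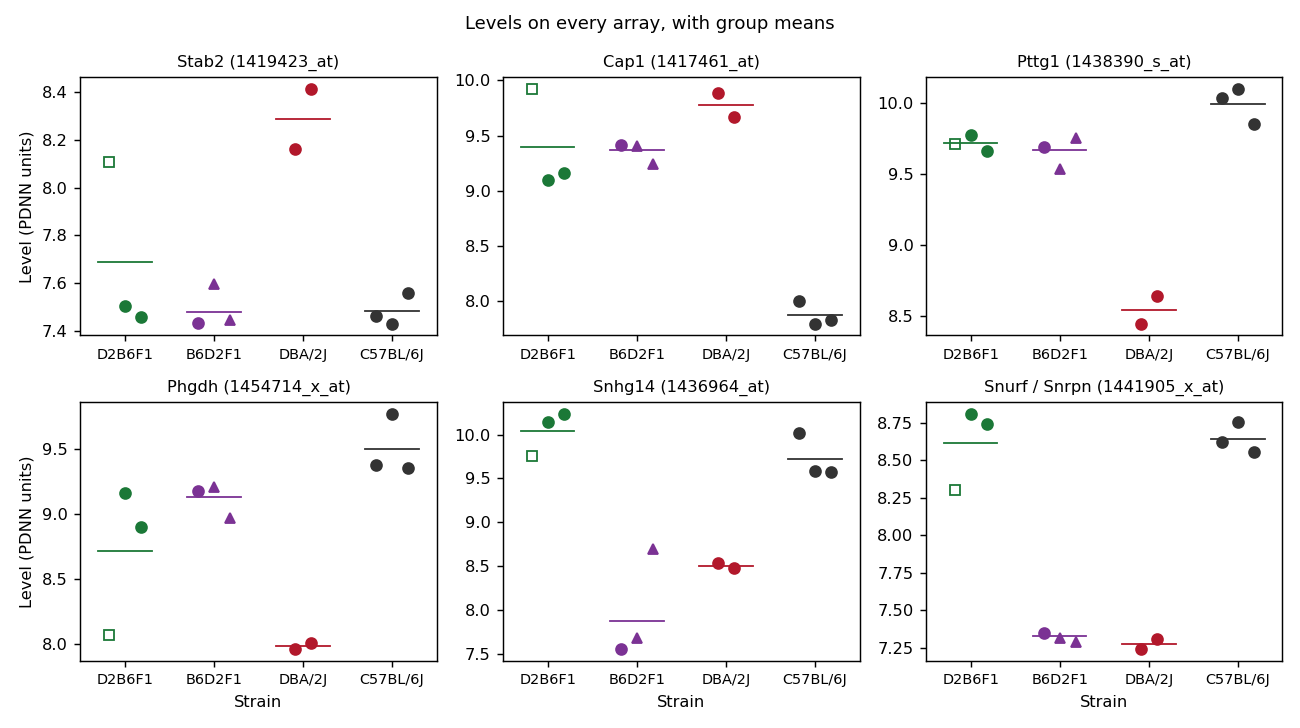
Levels (vertical axis, PDNN units) of 6 probe sets on every array by strain, with lines at the group means. The open square is D2B6F1 replicate 1 and the triangles are the technical duplicates B6D2F1 replicates 2 and 3. The open square lies away from the other D2B6F1 arrays for Stab2, Cap1 and Phgdh, and Snhg14 and the Snurf and Snrpn probe set separate the reciprocal hybrids.

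Among probe sets with a single gene symbol and a parental difference of 1 unit or more, the genes nearest C57BL/6J were Rpgrip1, Prune2, Rps9, Anp32a and Pttg1. Pttg1, which encodes securin, an inhibitor of chromosome separation, had 9.71, 9.78 and 9.67 units in D2B6F1, 9.69, 9.53 and 9.75 in B6D2F1, 8.44 and 8.64 in DBA/2J, and 10.04, 10.10 and 9.85 in C57BL/6J. All 6 hybrid arrays lay between the parents, with a position of 0.21 and an SD of 0.05 units over the 5 columns. A further Pttg1 probe set had a position of 0.41.

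Rps9, a protein of the small ribosomal subunit, had 10.09, 9.99 and 9.89 units in D2B6F1, 9.90, 10.01 and 10.16 in B6D2F1, 9.18 and 8.88 in DBA/2J, and 10.11, 10.44 and 9.96 in C57BL/6J. The hybrids overlapped C57BL/6J and not DBA/2J, at a position of 0.16 ± 0.09 (SE). Its difference from the mid-parent was 0.42 units (limma, adjusted p = 0.35). Rpgrip1, a protein of the photoreceptor cilium, had a position of 0.00 and a difference from the mid-parent of 0.66 units (limma, adjusted p = 0.52), with hybrids from 9.06 to 9.85 units and C57BL/6J from 9.17 to 9.79. Slc15a2, a peptide transporter, had a position of 0.21 and lay within 8.08 to 8.35 units in the hybrids, against 7.63 and 7.80 in DBA/2J and 8.35 to 8.41 in C57BL/6J. Fam126b had a position of -0.45 ± 0.53 (SE), with the hybrids between 8.96 and 9.56 units and C57BL/6J between 8.88 and 9.21. Anp32a, an acidic nuclear phosphoprotein, had a position of 0.19, but its DBA/2J arrays stood at 9.86 and 8.31 units and only replicate 1 was apart from the hybrids.

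Pdxdc1 and Prune2 each had probe sets that differed between the parents in opposite directions. Pdxdc1, a pyridoxal-dependent decarboxylase domain protein (chromosome 16), had 8.73, 8.79 and 8.62 units in D2B6F1, 8.87, 8.70 and 8.64 in B6D2F1, 9.16 and 8.96 in DBA/2J, and 7.71, 7.52 and 7.73 in C57BL/6J. All hybrid arrays lay between the parents, at a position of 0.77 ± 0.07 (SE), and the difference from the mid-parent was 0.38 units (limma, adjusted p = 0.19). The second probe set had a parental difference of -1.01 units and a position of 0.30. In both probe sets the hybrids lay nearer the higher parent. At its probe set lower in DBA/2J, Prune2 had 7.52, 9.40 and 9.70 units in D2B6F1, 8.89, 8.64 and 9.58 in B6D2F1, 7.72 and 7.67 in DBA/2J, and 9.59, 8.71 and 9.15 in C57BL/6J. Its position was 0.15, and -0.08 without D2B6F1 replicate 1, and the other probe set, higher in DBA/2J by 0.82 units, had a position of 0.71.

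Under the same limits, the genes nearest DBA/2J were Cap1, Gprc5b, Malat1, Pdxdc1 and Pisd-ps3. Cap1, a regulator of actin filaments (chromosome 4), had 9.92, 9.10 and 9.16 units in D2B6F1, 9.41, 9.40 and 9.24 in B6D2F1, 9.88 and 9.67 in DBA/2J, and 8.00, 7.80 and 7.83 in C57BL/6J. D2B6F1 replicate 1 was above both DBA/2J arrays and the others lay between the parents. The position was 0.79, and 0.72 without that array, with a difference from the mid-parent of 0.56 units (limma, adjusted p = 0.26). The other Cap1 probe set, with a parental difference of 2.12 units, gave 0.76 and 0.70.

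Lpl, lipoprotein lipase, had 9.74, 9.61 and 9.38 units in D2B6F1, 9.60, 9.40 and 9.62 in B6D2F1, 9.87 and 9.49 in DBA/2J, and 8.90, 9.11 and 8.52 in C57BL/6J. The hybrids overlapped DBA/2J and not C57BL/6J, with a position of 0.87 ± 0.14 (SE). Gprc5b, an orphan G-protein-coupled receptor, had a position of 0.79, and 0.73 without D2B6F1 replicate 1. Tmem87a, a Golgi membrane protein, had a position of 0.68 with an SD of 0.06 units over the 5 F1 columns, all between the parents. Gabra2, the alpha-2 subunit of the GABA-A receptor, had 4 probe sets in the rule, all higher in DBA/2J, with positions of 0.64, 0.65, 0.73 and 0.75. At the one with 0.75 it had 9.77, 9.66 and 9.53 units in D2B6F1, 9.48, 9.50 and 9.85 in B6D2F1, 9.89 and 9.80 in DBA/2J, and 8.99, 8.97 and 8.78 in C57BL/6J. All hybrid arrays were above C57BL/6J, and B6D2F1 replicate 3 overlapped DBA/2J.

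D2B6F1 replicate 1 stood apart from the other hybrids, and 1 file header names DBA/2J for it although its strain label is D2B6F1. Among the 195 probe sets with a BXD strain effect, 1 gene symbol and a chromosome, it was the hybrid array nearest DBA/2J at 75 (38.5%). The other D2B6F1 arrays were so at 26 and 24 and the B6D2F1 arrays at 16, 20 and 34. It lay at a position of 0.85 to 1.15 at 54 of the 195 (27.7%), against 22 and 14 for the other D2B6F1 arrays and 5, 5 and 30 for the B6D2F1 arrays. It was not at the DBA/2J level throughout, and neighbouring genes were often alike.

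On chromosome 3 its median position was 0.96 over 10 probe sets, against 0.36 for the median of the other hybrids, and it lay beyond all of them at 8 of 10. Phgdh, which starts the synthesis of serine from glycolysis, had 8.07, 9.17 and 8.90 units in D2B6F1, 9.18, 9.21 and 8.97 in B6D2F1, 7.96 and 8.01 in DBA/2J, and 9.37, 9.77 and 9.36 in C57BL/6J. Replicate 1 was close to DBA/2J. The other 5 arrays lay between the parents and nearer C57BL/6J, at positions of 0.19 to 0.39. With replicate 1 the position was 0.38, and without it 0.27. On chromosome 8 it was beyond the other hybrids at 7 of 10 probe sets. Prdx2, a peroxide-reducing enzyme (chromosome 8), had 8.13, 9.02 and 9.11 units in D2B6F1, 8.93, 8.91 and 8.99 in B6D2F1, 8.13 and 8.09 in DBA/2J, and 9.24, 9.30 and 9.17 in C57BL/6J. Mtmr7, a lipid phosphatase (chromosome 8), had a position of 0.96 in replicate 1 and of 0.18 to 0.34 in the other hybrids.

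Replicate 1 was beyond the others at 7 of 13 probe sets on chromosome 4, with Mysm1, Efhd2 and Vamp3 at 0.47, 0.29 and 0.34 between them, and at 5 of 7 on chromosome 16. On chromosome 2 its median position was 0.53 against 0.59 for the others, and it was beyond them at 3 of 19 probe sets. On chromosomes 7 and 14 it was beyond them at 3 of 14 and 1 of 6. On chromosome 1 it ran from -0.90 to 0.68 between Snhg6 and Pam and lay at 0.87 to 1.07 from Clasp1 through C1ql2, R3hdm1, Shisa4 and Cacna1e to Rasal2, above all the others except at R3hdm1. It was at 0.69 for Prrc2c and at 0.30 and 0.60 for the pair of Ildr2 probe sets that came next. On chromosome 13 it was at 0.36 and 0.01 for Zfp874a and Ssbp2, and at 0.84 to 1.13 for Paip1, 4833420G17Rik and Tmem267. These genes were named after their values were seen. Its strain label was kept.

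**Figure D4:**
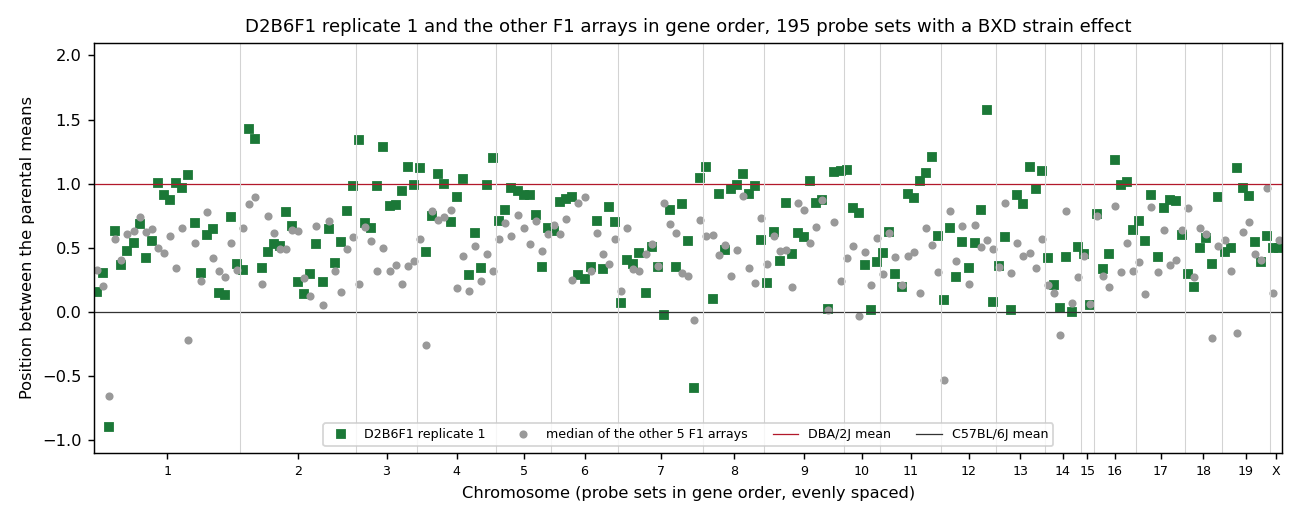
Position of D2B6F1 replicate 1 (squares) and the median of the other 5 F1 arrays (circles) for 195 probe sets with a BXD strain effect, in gene order along the chromosomes and evenly spaced (RefSeq order). Lines mark the parental means, and values outside -1 to 2 are drawn at that limit. The squares lie near the DBA/2J line on chromosome 3, with a median of 0.96, and among the circles on chromosome 2, with a median of 0.53.

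The reciprocal hybrids were compared to find levels that depend on the direction of the cross. All D2B6F1 arrays were female and 2 of the 3 B6D2F1 arrays male, so sex was a term of the fit. limma called 3 of 45037 probe sets (0.00666%), all higher in D2B6F1, of which 2 were within the rule. Snhg14 is the host transcript of a cluster of small nucleolar RNAs and is made from the paternal chromosome in neurons. It had 9.76, 10.14 and 10.23 units in D2B6F1, 7.56, 7.68 and 8.69 in B6D2F1, 8.54 and 8.47 in DBA/2J, and 10.02, 9.59 and 9.57 in C57BL/6J. As positions these were -0.03, -0.34 and -0.41 in D2B6F1 and 1.78, 1.67 and 0.85 in B6D2F1. D2B6F1 overlapped C57BL/6J, the strain of its father, and B6D2F1 replicates 1 and 2 lay below both DBA/2J arrays. D2B6F1 was higher by 2.08 units in batch 1 and by 2.11 units in batch 6. The technical duplicates of B6D2F1 lie in different batches, so both differences contain the same B6D2F1 RNA.

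Snurf and Snrpn, which share a transcript and a paternally active promoter in the same region, were listed together for 1 probe set. It had 8.30, 8.81 and 8.74 units in D2B6F1, 7.35, 7.32 and 7.29 in B6D2F1, 7.24 and 7.31 in DBA/2J, and 8.62, 8.76 and 8.56 in C57BL/6J. The B6D2F1 arrays were at the DBA/2J level, and D2B6F1 replicates 2 and 3 at the C57BL/6J level. Replicate 1 of D2B6F1, at 8.30, lay below all C57BL/6J arrays and above both DBA/2J arrays. The pooled position of 0.49 therefore stood for a position of 0.02 in D2B6F1 and of 0.96 in B6D2F1. D2B6F1 was higher by 0.986 units in batch 1 and by 1.43 units in batch 6, again with the same B6D2F1 RNA in both. A further probe set listed for Snrpn alone, outside the rule, had 8.85, 8.87 and 8.88 units in D2B6F1, against 8.91, 8.93 and 8.78 in B6D2F1. These hybrids overlapped, with a difference of 0.0039 units (limma, adjusted p = 0.999).

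The third call has no gene symbol and a parental difference of -0.49 units, just outside the rule. It had 7.92, 8.21 and 8.02 units in D2B6F1, 7.58, 7.46 and 7.56 in B6D2F1, 7.47 and 7.56 in DBA/2J, and 8.10, 8.09 and 7.83 in C57BL/6J. The hybrids did not overlap and followed the same order as Snurf and Snrpn. Its difference of 0.52 units (limma, adjusted p = 0.021) was not called without the batch term (adjusted p = 0.95).

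The promoter window of Snurf in RefSeq (GRCm38.p6, chr7:60005150-60005449, minus strand, 250 bases before to 50 after the start) is shown because this promoter is the one known to be methylated on the maternal copy. CG dinucleotides are in capitals, and there are 7 of them, a count reached by 52.1% of the 32851 promoter windows. Methylation was not measured here.
Snurf: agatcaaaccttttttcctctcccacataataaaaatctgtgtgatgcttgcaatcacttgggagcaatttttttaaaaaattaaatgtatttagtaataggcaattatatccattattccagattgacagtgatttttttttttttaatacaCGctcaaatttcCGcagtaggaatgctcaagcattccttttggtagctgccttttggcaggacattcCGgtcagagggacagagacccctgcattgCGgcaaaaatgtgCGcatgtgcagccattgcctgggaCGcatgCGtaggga

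Other imprinted genes were examined from a list. Of 39 listed imprinted genes, each at its brightest probe set, 2 (5.13%) had an unadjusted reciprocal p under 0.05 (Snhg14 and Mirg), against 2.44% of all probe sets, and Snhg14 was called. Their median absolute difference was 0.038 units, against 0.047 over all probe sets. The called probe set listed for both Snurf and Snrpn was not in this count, in which Snrpn stood at the further probe set described above. Meg3 was counted at a probe set with a difference of -0.096 units, not at the one described next. The list also held Xist. The Meg3 probe set with the lower DBA/2J level, for a maternally expressed non-coding RNA, had 8.99, 8.70 and 9.04 units in D2B6F1, 9.66, 10.21 and 9.87 in B6D2F1, 9.54 and 9.20 in DBA/2J, and 9.92, 9.92 and 10.26 in C57BL/6J. D2B6F1 was below all other arrays, with a difference of -1.04 units from B6D2F1 (limma, adjusted p = 0.50). The other 3 Meg3 probe sets in the rule were higher in DBA/2J, with positions of 0.36 to 0.41 and overlapping hybrids. Ube3a, Peg3, Kcnq1ot1, Rian and A330076H08Rik, also imprinted, were in the rule with positions of 0.22 to 0.74 (0.34 to 0.81 without D2B6F1 replicate 1), and none was called.

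The rule also chose 14 X-linked probe sets, of which 2, for Fam199x and Erdr1, had a BXD strain effect, and 0 mitochondrial ones. Xist, which silences an X chromosome in females, met it with 2 female DBA/2J arrays set against 1 female and 2 male C57BL/6J arrays. At 1 probe set it had 8.68, 9.74 and 9.73 units in the female D2B6F1 arrays, 8.66 in the female B6D2F1 array, 9.79 and 9.81 in DBA/2J, and 8.84 in the female C57BL/6J array, and the male arrays lay between 7.28 and 7.35. Its level followed the sex labels on all 11 arrays, and among females D2B6F1 replicate 1 lay with C57BL/6J and B6D2F1. At the second Xist probe set the female hybrids were closer, at 9.22, 9.59 and 9.42 units in D2B6F1 and 9.43 in B6D2F1. Chic1, an X-linked gene near Xist, had a position of 0.68, with the duplicates at 8.01 and 9.17 units. The hybrid mean of an X-linked probe set mixes female arrays with the male B6D2F1 duplicates. Males do not carry a copy of the X chromosome from each parent. X-linked positions are therefore not read as positions between both parents' copies, and Fam199x and Erdr1 are among the probe sets with a BXD strain effect.

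Gene lists describe which cell types and pathways the rule reached. The myelin list had 6 of 11 measured genes in the rule (Mog, Mag, Mobp, Mal, Cnp and Cldn11), all lower in DBA/2J, and 2 of their probe sets had a BXD strain effect. Mag, an adhesion protein of myelin, had 9.41, 9.19 and 9.13 units in D2B6F1, 9.42, 9.47 and 8.96 in B6D2F1, 8.76 and 8.79 in DBA/2J, and 9.44, 9.82 and 9.29 in C57BL/6J. The hybrids were above DBA/2J and overlapped C57BL/6J, whose replicate 2 was the highest array for each of the myelin probe sets in the rule. The list's median difference from the mid-parent was 0.23 units, against -0.0041 over all probe sets. By limma, 6 of 11 genes had an unadjusted p under 0.05, against 2.99% of all probe sets, and 0 were called. Genes of a list measured on the same arrays are not separate observations.

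The astrocyte list had Gfap, Aqp4, Slc1a2 and Mt3 in the rule, in both directions. Gfap and Mt3 were lower in DBA/2J, and Aqp4 and Slc1a2 were higher. Mt3, a metal-binding protein of brain, had a position of 0.47 (0.55 without D2B6F1 replicate 1) and duplicates at 11.19 and 9.78 units. The MHC and interferon list had H2-D1, an antigen-presenting molecule, at 3 probe sets with positions of 0.52 to 0.58, and of 0.43 to 0.52 without D2B6F1 replicate 1. C1ql2, a synaptic protein of dentate granule cells, had a position of 0.51 (0.45 without that array), and Camk2a was the pyramidal neuron gene in the rule. Of the glutamate receptors Gria1, Gria2 and Grin2b were in it, at positions of 0.64, 0.71 and 0.38, and of 0.56, 0.60 and 0.43 without D2B6F1 replicate 1. The microglia, endothelium, choroid plexus, thalamus, erythroid, interneuron and immediate early lists had 0 genes in the rule.

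The list of genes known to vary between these strains, drawn up with earlier results of these data known, had 12 of 17 in the rule and 18 probe sets with a BXD strain effect. Alad (a heme synthesis enzyme), Pam (a peptide-amidating enzyme) and Kcnj9 (a potassium channel subunit) had positions of 0.62, 0.63 and 0.44, and of 0.49, 0.63 and 0.42 without D2B6F1 replicate 1. Glo1, which detoxifies methylglyoxal, had positions of 0.26 and 0.83 at its 2 probe sets, and 0.12 and 0.80 without D2B6F1 replicate 1, with hybrids that overlapped both parents at each. Stk25, a kinase, was lower in DBA/2J by 1.12 units and had a position of 0.54. Slc8a1 (a sodium-calcium exchanger), Ptp4a2 (a phosphatase) and Tra2a (a splicing factor) were higher by 1.45, 1.80 and 1.40 units, with positions of 0.52, 0.61 and 0.60.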

How the data were processed

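Hippocampal RNA of pooled mice was measured on Affymetrix arrays. The deposited PDNN values are scores that the authors, per the labels, scaled on each array toward a mean of 8 with an SD of 2. The file's array means were 8.06 to 8.1, with SDs of 0.63 to 0.799. RMA and MAS5 scores from the authors were alternatives. RMA columns headed C57BL/6J correlated best with BALB/cJ arrays of the PDNN table, so RMA parental values are not usable as labelled. After 64 control probe sets were left out, 45037 were fitted with limma 3.58.1 in R 4.3.3 on strain, sex and batch (199 columns, 92 residual degrees of freedom), with the technical duplicate averaged and a mixed-sex array left out. p-values were adjusted over all probe sets by the Benjamini-Hochberg method. Positions used plain means and the SE of a position the fit. Batch and strain overlapped in part: both parents and the hybrids shared only batch 5. Named genes, among those with a single symbol, were the 10 largest parental differences each way, the 5 positions nearest 0, 0.5 and 1 at a difference of 1 or more, the 5 smallest mid-parent p on either side, and, whatever their symbol, all calls, then members of fixed lists, X-linked and imprinted genes. The members and lists were chosen with earlier results of these data known. The fit was tested on simulated data. Alternatives were other summaries, normalization, filters, model terms and arrays left out.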

Additional observations from a re-analysis of the deposited data

Results flagged for a closer look

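Among 37 named probe sets, 8 had 1 F1 column far from the other 4 (gap over range above 0.71). That limit is set to flag about 1 in 20 independent cases. The 37 share the same columns and some were chosen by their F1 values, so this rate is no measure for the 8. In 5 of the 8 the array was D2B6F1 replicate 1. It had 8.07 units for Phgdh (other columns 8.90 to 9.18), 7.83 for Mtmr7 (8.58 to 8.66), 8.13 for Prdx2 (8.93 to 9.11), 9.76 for Pisd-ps3 (9.09 to 9.27) and 8.11 for Stab2 (7.43 to 7.52). In the other 3 it was B6D2F1 replicate 1, at 8.81 units for Slc8a1, 7.62 for Cpsf6 and 8.03 for Klf7. Here 1 of the other columns is the mean of the duplicates B6D2F1 replicates 2 and 3, which lay far apart, at 8.78 and 9.89 for Slc8a1, 7.62 and 9.13 for Cpsf6 and 8.17 and 8.98 for Klf7. Replicate 1 was therefore not alone in being low.

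The reciprocal hybrids differed at 3 probe sets by limma's test. D2B6F1 minus B6D2F1 was 2.15 units for Snhg14 (adjusted p = 3.2e-11), 1.30 units for Snurf and Snrpn (adjusted p = 8.6e-09) and 0.52 units for a probe set with no symbol (adjusted p = 0.021), each higher in 3 of 3 D2B6F1 arrays than in every B6D2F1 array.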

How the results depend on the processing

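No paired analysis was possible because the labels give no replicate numbers that tie arrays of different strains. The calls of Snhg14 and of Snurf and Snrpn held in every setting run, while the third reciprocal call was lost with MAS5, RMA or quantile-normalized values, without the batch term, with the spread of inbred strains and hybrids alone, and without D2B6F1 replicate 1, D2B6F1 replicate 2, B6D2F1 replicate 1 or both D2B6F1 replicate 1 and B6D2F1 replicate 3. The median position moved by less than its spread throughout, and ran from 0.45 to 0.62 over all chosen probe sets and from 0.43 to 0.53 over those with a BXD strain effect when single arrays were left out. Counts of calls moved more, and the cause was not tested.

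With MAS5 values there was 1 mid-parent call, with 1702 chosen probe sets and 2458 BXD strain effects. The RMA table, in which columns headed C57BL/6J correlated best with BALB/cJ arrays of the PDNN table, gave 162 mid-parent calls, 697 against C57BL/6J, 2016 between the parents and 263 chosen probe sets. There the mid-parent difference turned negative for Pdxdc1 (-0.84), Cap1 (-0.67), Lpl (-0.28), Tmem87a (-0.75) and Gabra2 (-0.41). Quantile normalization gave 4 mid-parent calls, Pdxdc1 among them. A mean of 8 or more left fewer probe sets to test and gave 2130 parental calls and 2260 BXD strain effects.

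Calls of the hybrids against C57BL/6J, of the hybrids against DBA/2J and between the parents numbered 172, 106 and 1480 without the batch term, and 80, 29 and 880 with the spread of inbred strains and hybrids alone. Without arrays of high RMA outlier share there were 5 reciprocal calls, 129 against C57BL/6J and 486 against DBA/2J. Without both D2B6F1 replicate 1 and B6D2F1 replicate 3, a choice made after seeing the data, there were 2 mid-parent calls, 140 against C57BL/6J and 448 against DBA/2J.

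Leaving out 1 array at a time gave 0 to 3 mid-parent calls, 2 to 4 reciprocal calls, 165 to 990 against C57BL/6J, 77 to 585 against DBA/2J, 1429 to 3368 between the parents and 630 to 1044 chosen probe sets. Mid-parent calls were 3 without D2B6F1 replicate 1 and 1 without B6D2F1 replicate 2. Calls against C57BL/6J were 990 without B6D2F1 replicate 2, 211 without B6D2F1 replicate 3 and 165 without C57BL/6J replicate 3. Those against DBA/2J were 164 without D2B6F1 replicate 2, 115 without B6D2F1 replicate 1, 585 without B6D2F1 replicate 3 and 77 without DBA/2J replicate 1. Parental calls were 1429 and 2141 without DBA/2J replicates 1 and 2 and 1899 without C57BL/6J replicate 2. With 2 to 3 arrays a strain, the number of arrays limits the precision.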
